A study of Mus musculus with 70 samples.

Results

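The genes described here carry fatty acids into cells, oxidise them in mitochondria and peroxisomes, store them in droplets, or are known targets of the peroxisome proliferator-activated receptors (PPARs). They were chosen by name, as 32 gene symbols, and 31 of them were measured among the 18193 genes with a probe set of 1 gene symbol. The probe set of Cpt1b, the muscle form of carnitine palmitoyltransferase 1, lists several gene symbols, so this gene was not analysed here. All 31 measured genes lay above the filter on low signal, and each stands for its brightest probe set, by mean over the arrays.

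The right lobe of the lung was sampled from 70 mice, all female B6C3F1, a hybrid strain used in rodent cancer bioassays, which were 5 weeks old at the start and 18 weeks old at collection. Mice received a chemical for 13 weeks, in feed on 7 days a week or by gavage in 5 ml/kg of corn oil or water on 5 days a week. Of 13 chemicals, 7 are labelled as lung carcinogens in female mice and 6 as negative. The question was which transcripts separate the classes, and single chemicals against their controls are described here.

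The number before the hyphen in each animal's identifier splits the mice into 18 of set 1 and 52 of set 2 and the sources used here do not say what it stands for. In set 1, with 3 mice a group, the feed groups were pentachloronitrobenzene at 8187 ppm, 1,5-naphthalenediamine at 2000 ppm, N-(1-naphthyl)ethylenediamine dihydrochloride at 2000 ppm and untreated diet. The corn oil groups of set 1 were 2,3-benzofuran at 240 mg/kg and corn oil alone. In set 2, with 4 mice a group apart from 8 corn oil controls, the feed groups were 4-nitroanthranilic acid at 10000 ppm, 2,2-bis(bromomethyl)-1,3-propanediol at 1250 ppm, malathion at 16000 ppm, diazinon at 200 ppm and untreated diet. The corn oil groups of set 2 were benzene at 100 mg/kg, coumarin at 200 mg/kg, 1,2-dibromoethane at 62 mg/kg and corn oil alone. The water groups were N-methylolacrylamide at 50 mg/kg, 2-chloromethylpyridine hydrochloride at 250 mg/kg and water alone. The labelled carcinogens were 1,5-naphthalenediamine, 2,3-benzofuran, 2,2-bis(bromomethyl)-1,3-propanediol, N-methylolacrylamide, 1,2-dibromoethane, coumarin and benzene. Each chemical was given at 1 dose, so the chemicals are not ranked by potency.

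Fatty acids enter cells through carriers such as CD36, are bound by fatty acid-binding proteins and are joined to coenzyme A. The carnitine shuttle moves them into mitochondria, where a dehydrogenase, a hydratase, a second dehydrogenase and a thiolase shorten the chain in repeated rounds, and electron-transferring flavoprotein passes the electrons on. PPARs are nuclear receptors that bind DNA with RXR partners and switch on many of these genes when fatty acids or certain drugs bind them. In lung, alveolar type II cells use fatty acids to make surfactant, and alveolar macrophages take up lipid from it.

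Values are log2 signals, so a difference of 1 is a doubling of signal. The tissue label was borne out by Sftpc (lowest array 14.23) and Scgb1a1 (lowest array 13.95), which mark alveolar type II and club cells. Means are given ± SD, changes ± the standard error of the limma fit, and a gene was called when its Benjamini-Hochberg adjusted p over 12735 genes was under 0.05. In whole tissue, fewer cells of a type and less RNA per cell cannot be told apart. Signal of the 3′ less that of the 5′ control probe sets (Actb, Gapdh), which grows as RNA degrades, exceeded 0.5 in 2 mice: 1-10 of the 2,3-benzofuran group (0.523) and 2-56 of the 1,2-dibromoethane group (0.989). The RNA integrity number, which falls as RNA degrades and is labelled for some mice only, was 8.9 for 1-10 and 7.1 for 2-56.

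Promoter windows are shown because some of these genes moved together across mice, and because PPAR-RXR pairs bind repeats of AGGTCA. RefSeq windows on GRCm38.p6 run from 250 bases before to 50 bases after a gene's start, and 27 of the 32 genes have one. Every motif was searched on both strands. The PPAR-type direct repeat, read as AGGNCA, any base, then AGGNCA, matched no window of these 27 genes, against 0.451% of all 27025 genes. Its strict form, AGGTCA, any base, then AGGTCA, also matched none, against 0.0481%. The single-receptor motif TNAAGGTCA matched none either, against 1.43%. AGGTCA and TATAAA were then added to the search after the first 3 motifs gave no match. AGGTCA, which lies inside the longer motifs spelled with it, was found in Acadm, Acadvl, Cd36, Cpt1a and Plin2, 18.5% of the 27 genes against 18.1% of all genes. TATAAA was found in none, against 15.7%. AGGTCA was therefore about as common as in other windows of the same length, while TATAAA was less common. Median GC content was 58.4% in the windows of these genes and 52.7% over all windows, and its part was not tested. A match is a description of sequence, not a binding site. The first 3 sequences below hold AGGTCA or its reverse complement, in capitals. They stand for Cd36, the fatty acid carrier, Acadm, the medium-chain dehydrogenase, and Cpt1a, the enzyme that commits fatty acids to the carnitine shuttle. The fourth is the window of Hadhb on the plus strand, with the bases it shares with the window of its divergent neighbour Hadha in capitals.
Cd36, chr5:17835847-17836146, minus strand: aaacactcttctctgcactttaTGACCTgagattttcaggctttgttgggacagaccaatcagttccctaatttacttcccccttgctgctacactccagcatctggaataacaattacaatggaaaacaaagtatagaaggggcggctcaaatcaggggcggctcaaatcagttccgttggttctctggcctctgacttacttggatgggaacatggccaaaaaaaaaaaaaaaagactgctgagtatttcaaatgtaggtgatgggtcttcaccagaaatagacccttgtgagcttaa
Acadm, chr3:153944594-153944893, minus strand: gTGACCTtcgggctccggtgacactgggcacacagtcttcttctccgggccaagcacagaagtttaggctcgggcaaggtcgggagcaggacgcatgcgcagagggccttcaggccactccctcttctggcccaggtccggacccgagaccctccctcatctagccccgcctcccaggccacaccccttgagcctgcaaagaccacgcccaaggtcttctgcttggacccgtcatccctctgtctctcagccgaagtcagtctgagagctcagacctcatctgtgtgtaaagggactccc
Cpt1a, chr19:3323051-3323350, plus strand: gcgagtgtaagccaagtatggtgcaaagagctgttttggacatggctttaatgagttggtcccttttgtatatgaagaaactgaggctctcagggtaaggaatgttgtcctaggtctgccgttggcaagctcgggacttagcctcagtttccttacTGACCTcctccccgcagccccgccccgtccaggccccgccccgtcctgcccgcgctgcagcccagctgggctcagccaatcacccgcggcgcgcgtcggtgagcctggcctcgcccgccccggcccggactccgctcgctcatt
Hadhb, chr5:30155003-30155302, plus strand: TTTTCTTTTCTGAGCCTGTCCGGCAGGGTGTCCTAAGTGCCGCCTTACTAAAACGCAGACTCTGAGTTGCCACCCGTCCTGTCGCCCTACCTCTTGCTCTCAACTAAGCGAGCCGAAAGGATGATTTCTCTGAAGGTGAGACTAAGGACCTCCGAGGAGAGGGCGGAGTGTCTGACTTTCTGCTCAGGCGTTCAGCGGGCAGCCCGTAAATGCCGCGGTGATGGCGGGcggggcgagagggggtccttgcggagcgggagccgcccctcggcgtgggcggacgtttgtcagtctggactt

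The windows of Hadha and Hadhb share 228 bases, and the annotated starts lie 273 bases apart. The pair encodes the alpha and beta subunits of the mitochondrial trifunctional protein, which carries the later steps for long chains. Across 70 mice, with group means subtracted, their signals had a Pearson's r of 0.595 and a Spearman's rho of 0.487 (within-group permutation, adjusted p = 0.00055 and 0.0022 over 465 pairs). The r was 0.506 without the 2 mice farthest from the median, 0.53 in set 1 and 0.612 in set 2. Of the 465 pairs of these genes, 42 had a higher r, and the median r was 0.18, so this pair lay in the upper part of the range and not at its top. Hadha and Hadhb were also the steadiest genes of the group, with a within-group SD of 0.11 each. Other probe sets of Hadhb followed the chosen one weakly (r = 0.19 and -0.03), so the pair's r holds for these probe sets.

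For Cd36 and Acadsb the sets were fully separate. In the 18 mice of set 1, Cd36 lay between 12.38 and 12.88 with a median of 12.65, and in the 52 mice of set 2 between 10.15 and 12.34 with a median of 11.61. Acadsb, the short/branched-chain acyl-CoA dehydrogenase, lay between 8.86 and 9.41 in set 1 with a median of 9.25, and between 7.65 and 8.75 in set 2 with a median of 8.27. Every mouse of set 1 lay above every mouse of set 2 for both genes, and the other 29 genes overlapped.

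Medians of other genes also differed. Acads, the short-chain dehydrogenase, had a median of 7.02 in set 1 and 7.50 in set 2. Acaa1b, a peroxisomal thiolase, had medians of 7.43 and 8.95, and Slc25a20, the carnitine-acylcarnitine carrier, 9.05 and 9.82. Acot1, a cytosolic acyl-CoA thioesterase and a common PPAR alpha target, had medians of 8.52 and 9.48. Etfa and Acadm went the way of Cd36, with medians of 10.30 against 9.70 and 10.18 against 9.77. Corn oil and feed controls exist in both sets, but the sets were not tested against each other here, and each chemical was compared within its set. Hepatocyte markers such as Alb, the gene of albumin, also differed: their mean over 6 genes was 4.83 to 4.91 in the groups of set 1 and 5.60 to 7.75 in those of set 2. Their part in the results was not tested.

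**Figure D1:**
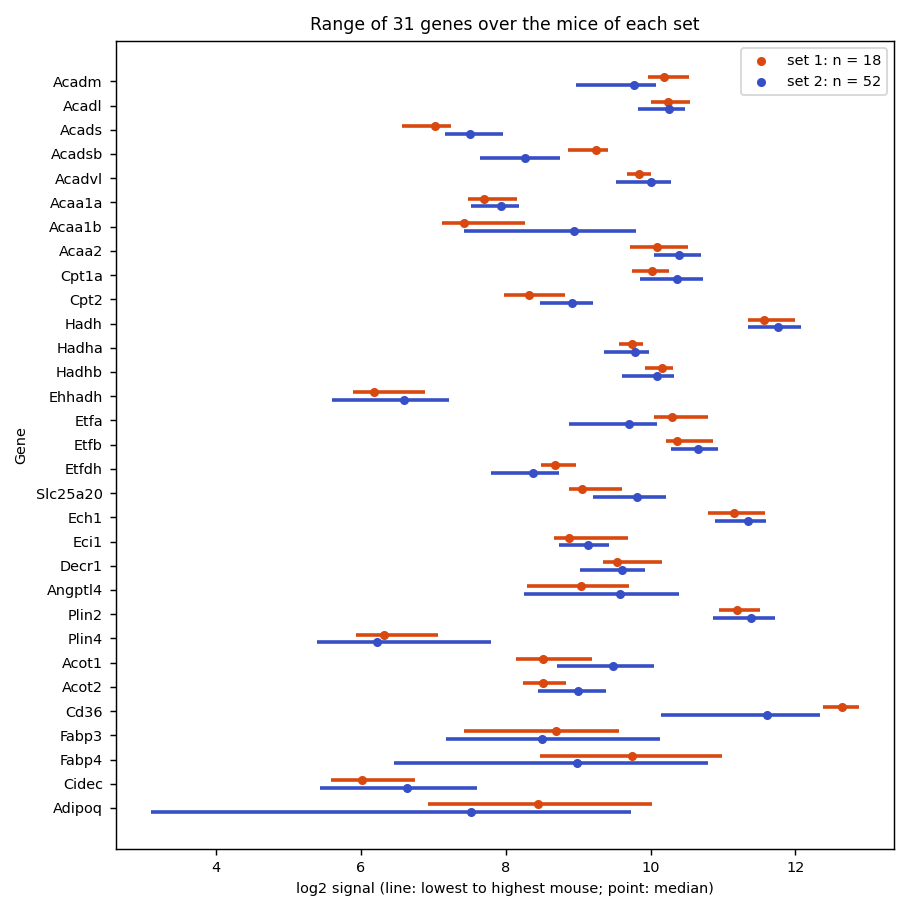
Log2 signal of the 31 genes over the 18 mice of set 1 and the 52 of set 2. Lines run from the lowest to the highest mouse and points mark medians; the lines of Cd36 and Acadsb do not overlap between sets.

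Of the 13 chemicals, 10 had none of the 31 genes called, and 3 did: N-methylolacrylamide with 9, and 2,3-benzofuran and 1,2-dibromoethane with 2 each. These were 29.0%, 6.45% and 6.45% of the 31 genes, against 21.8%, 5.03% and 4.59% of all genes tested. Coumarin, with 4.68% of all genes called, had none of the 31. The 3 chemicals with called genes are labelled as lung carcinogens, and the other 4 labelled carcinogens had none called. No test of class was made here.

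**Figure D2:**
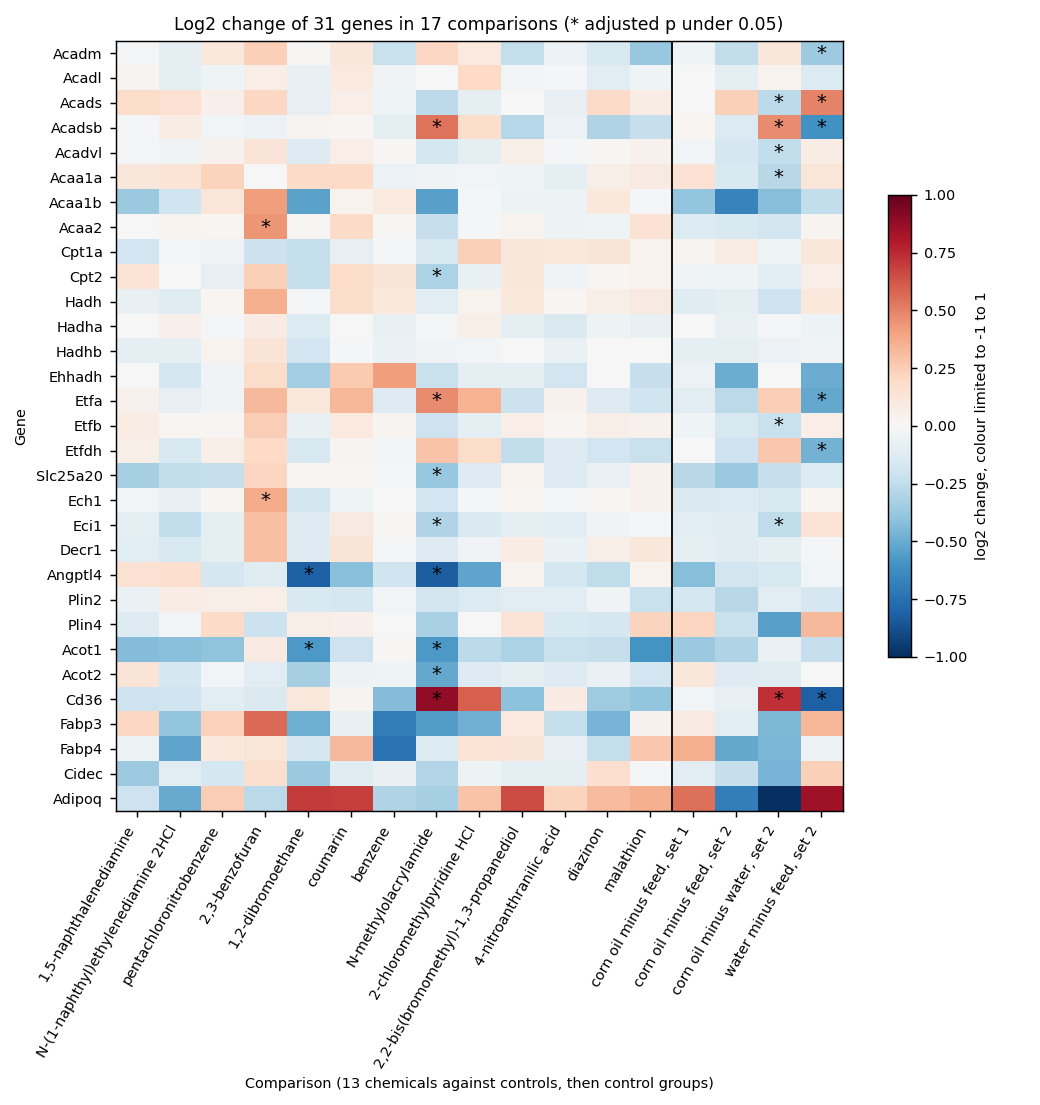
Log2 change of the 31 genes, in rows, for 13 chemicals against their controls and for 4 comparisons of control groups, right of the line. Colour gives the change, limited at -1 and 1, and stars mark changes with an adjusted p under 0.05, of which N-methylolacrylamide has 9.

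N-methylolacrylamide was compared with water alone. Angptl4, Acot1, Acot2, Slc25a20, Cpt2 and Eci1 fell, and Cd36, Acadsb and Etfa rose. These 9 were 29.0% of the 31 genes, and 21.8% of all genes tested were called in this comparison, so the share lies near the background. The median change of the 31 genes was -0.20, with 26 of 31 below 0, and that of all genes tested was -0.10.

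Angptl4 is a secreted inhibitor of lipoprotein lipase and a PPAR target. Its signal was 8.73, 8.99, 9.11 and 9.32 in treated mice and 9.31, 9.53, 10.20 and 10.39 in water controls, with an overlap of 0.01 between the groups. It fell by 0.82 ± 0.24 (adjusted p = 0.0137), from 9.86 ± 0.52 (n = 4) to 9.04 ± 0.24 (n = 4).

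Acot1 stood at 8.73, 8.98, 9.16 and 9.29 in treated mice and at 9.13, 9.71, 9.77 and 9.85 in controls. Only control 2-121 lay within the treated range. Acot1 fell from 9.61 ± 0.33 to 9.04 ± 0.24, a change of -0.57 ± 0.19 (limma, adjusted p = 0.0248). Acot2, the mitochondrial thioesterase next to it on chromosome 12, lay at 8.60, 8.66, 8.67 and 8.67 in treated mice, against 8.83, 9.19, 9.24 and 9.37 in controls. The treated values were tightly grouped and all below the controls, and Acot2 fell from 9.16 ± 0.23 to 8.65 ± 0.034, a change of -0.51 ± 0.13 (adjusted p = 0.00612). A second probe set of Acot2 changed by -0.74. The sequences of the thioesterases are alike, and how far their probes take up each other's RNA was not tested.

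Slc25a20 and Cpt2, consecutive steps of the carnitine shuttle, also fell. Slc25a20 went from 9.86 to 9.48, a change of -0.38 ± 0.13 (limma, adjusted p = 0.036), and Cpt2 from 8.96 to 8.65, a change of -0.32 ± 0.11 (adjusted p = 0.0331). Eci1, an isomerase for unsaturated chains, fell from 9.33 to 9.03, a change of -0.30 ± 0.11 (adjusted p = 0.0469). For all 3, picked because they were called, the 4 treated mice lay below the 4 controls. Cpt1a, the first step of the shuttle, had a change of -0.16 and was not called (adjusted p = 0.323). The largest change not called was that of Fabp3, -0.56, with an interval from -1.34 to 0.22.

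Cd36 stood at 11.64, 11.69, 12.01 and 12.17 in treated mice and at 10.39, 10.82, 10.98 and 11.78 in controls. Control 2-129 alone reached the treated range. Cd36 rose from 10.99 ± 0.58 to 11.88 ± 0.25, by 0.89 ± 0.25 (limma, adjusted p = 0.0112), and its 2 other probe sets changed by 0.80 and 0.92. Acadsb was 8.29, 8.35, 8.50 and 8.50 in treated mice against 7.65, 7.71, 7.83 and 8.27 in controls, a rise from 7.86 to 8.41 of 0.55 ± 0.12 (limma, adjusted p = 0.00308) with no overlap. Etfa, the alpha subunit of electron-transferring flavoprotein, was 9.66, 9.67, 9.91 and 10.03 against 9.07, 9.20, 9.47 and 9.66, a rise from 9.35 to 9.82 of 0.47 ± 0.15 (limma, adjusted p = 0.0185). Its groups met at the second decimal.

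The 4 water controls had the lowest mean of all 18 groups for Cd36 (10.99), Acadsb (7.86), Etfa (9.35) and Etfdh (8.10), and the highest for Acads (7.81) and Eci1 (9.33). Without control 2-124, 1 of the 31 genes was called in place of 9, while calls over all genes went from 2777 to 416. Without treated mouse 2-102 or 2-106, 4 were called, with 1097 and 1255 over all genes. Without control 2-127 or treated mouse 2-109, 5 were called, with 2115 and 2374 over all genes. The count among the 31 genes thus went down with the count over all genes. Acadsb was the gene whose call was kept in all 17 alternatives. The call of Eci1 was lost in 11 of 17, no filter, quantile normalization and the marker covariates among them, and that of Cpt2 in 8 of 17.

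Of 52 other pathway genes tested, 6 rose and 5 fell with N-methylolacrylamide (21.2%, against 21.8% of all genes tested). The largest changes were in Lpl, lipoprotein lipase (1.07, adjusted p = 0.00608), Crot, the peroxisomal carnitine octanoyltransferase (0.97), Acsl4 (0.94) and Acsl3 (0.79), which activate long fatty acids, Lipe, hormone-sensitive lipase (-0.74), and Abcd3, a peroxisomal transporter (0.52). Pnpla2, the adipose triglyceride lipase, fell by 0.48. Pnpla2 was named after its value was seen. Heart muscle markers, from muscle sleeves of the pulmonary veins, had a median change of -0.82, with 11 of 13 below 0 and 0 called, and their mean ranged from 6.57 to 8.56 in treated mice and from 7.48 to 8.46 in controls. With fat and heart marker means as covariates 8 of the 31 genes and 2514 of all genes were called. The 5 hepatocyte markers had a median change of -0.40, all below 0 and 0 called. Of 5 alveolar macrophage markers, 2 were above 0 and 3 below, with a median change of -0.06. The 1 called was Mrc1, a mannose receptor, which rose by 1.04, and its part in the results was not tested.

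1,2-dibromoethane was compared with the 8 corn oil controls of set 2, and Angptl4 and Acot1 fell. These are 2 of 31 genes (6.45%), against 4.59% of all genes tested. An unadjusted p under 0.05 in limma was found for 9 of the 31 and for 2625 of all 12735 genes. The median change was -0.13, with 22 of 31 below 0, against -0.02 over all genes tested. Angptl4 lay at 8.25, 8.66, 9.30 and 9.33 in treated mice, and from 9.17 to 10.06 with a median of 9.76 in controls. The treated mice lay in a lower and a higher pair, and the higher pair was inside the range of the controls. Angptl4 fell from 9.70 ± 0.30 to 8.88 ± 0.52, a change of -0.82 ± 0.21 (limma, adjusted p = 0.0149).

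Acot1 lay at 8.71, 8.86, 9.05 and 9.27 in mice given 1,2-dibromoethane, and from 9.10 to 10.00 with a median of 9.52 in controls. Of the treated mice, 2-58 lay within the control range. Acot1 fell from 9.54 ± 0.30 to 8.97 ± 0.24, a change of -0.57 ± 0.16 (limma, adjusted p = 0.0294). Acot2 changed by -0.33 (adjusted p = 0.0783), and the gene with the largest change not called was Adipoq, with 0.70 and an interval from -1.50 to 2.91. Neither gene was called without treated mouse 2-54, and 1 gene was called without treated mouse 2-58, or without control 2-132 or 2-97. Over all genes these fits called 366, 358, 522 and 418. RNA integrity numbers were 7.6 for 2-54, 7.1 for 2-56, 8.2 for 2-52 and 8.8 for 2-58. In the 8 corn oil controls they ranged from 7.9 to 8.8, and their part in the results was not tested. Without mouse 2-56, whose 3′ minus 5′ value was 0.989, Acot1 had a change of -0.54 and was not called (adjusted p = 0.0747), while Angptl4 was. Without both 2-56 and 1-10, the 2 mice above 0.5, Acot1 and Angptl4 kept their calls. In that fit 3 of the 31 genes and 670 of all genes were called, in place of 2 and 584.

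Heart muscle markers moved with this comparison: their median change was -0.91, with 12 of 13 below 0 and 0 called, and their mean ranged from 6.43 to 7.49 in treated mice and from 6.84 to 8.35 in controls. With fat and heart muscle marker means as covariates neither gene was called (Angptl4 -0.74 and Acot1 -0.53, limma, adjusted p = 0.0778 and 0.113). In that fit 218 of all genes were called, in place of 584. The 5 hepatocyte markers had a median change of -0.74, all below 0 and 0 called. Of 5 alveolar macrophage markers, Siglecf fell by 1.07, and of 4 type II cell markers, Sftpa1 fell by 0.21; their part in the results was not tested. Of 52 other pathway genes, Acox2, a peroxisomal branched-chain oxidase, rose by 0.96 (adjusted p = 8.11e-07) and Ppard, the gene of PPAR delta, fell by 0.59 (adjusted p = 0.0177).

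With N-methylolacrylamide and 1,2-dibromoethane, which do not share controls, Angptl4 had changes of -0.82 and -0.82 and Acot1 of -0.57 and -0.57. Whether the changes of the other 7 genes differ between these chemicals was not tested.

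**Figure D3:**
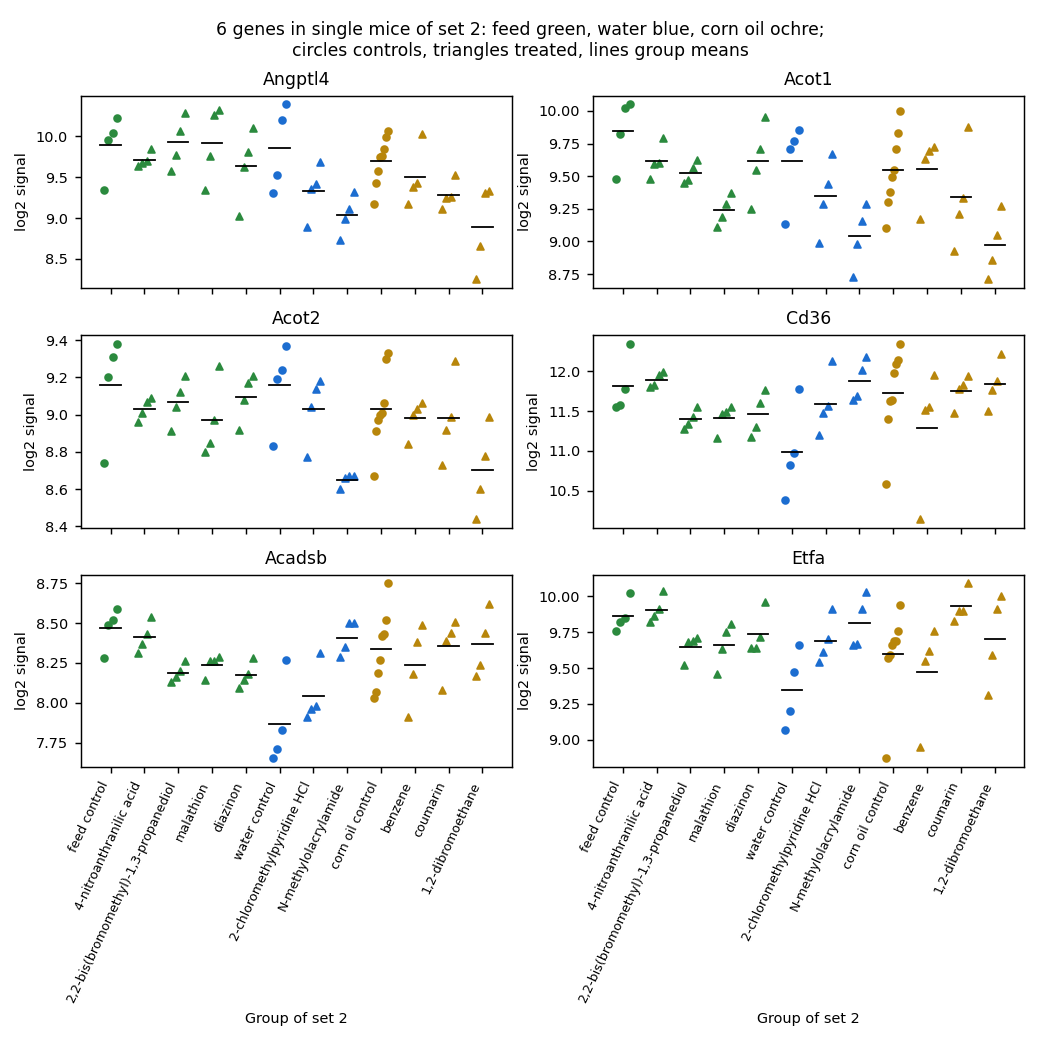
Log2 signal of Angptl4, Acot1, Acot2, Cd36, Acadsb and Etfa in each mouse of the 12 groups of set 2. Circles are controls, triangles are treated mice, colours are vehicles and lines are group means; water controls have the lowest means of Cd36, Acadsb and Etfa.

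2,3-benzofuran was compared with 3 corn oil controls of set 1, and Acaa2 and Ech1 rose. These are 6.45% of the 31 genes, against 5.03% of all genes tested. The median change was 0.16, with 24 of 31 above 0, and that of all genes tested was 0.07. Acaa2, the mitochondrial thiolase, stood at 10.30, 10.35 and 10.52 in treated mice and 9.71, 10.03 and 10.10 in controls. The groups did not overlap, and Acaa2 rose from 9.94 ± 0.21 to 10.39 ± 0.11, by 0.44 ± 0.11 (limma, adjusted p = 0.00983). Its 2 other probe sets changed by 0.37 and 0.49. Ech1, an isomerase for unsaturated chains, stood at 11.20, 11.35 and 11.58 against 10.80, 10.98 and 11.23, a rise from 11.01 ± 0.21 to 11.37 ± 0.19 of 0.37 ± 0.11 (limma, adjusted p = 0.0312) with an overlap of 1 mouse a side.

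Both calls were lost without single mice. The highest treated mouse for Acaa2 and Ech1 was 1-10, whose 3′ minus 5′ value was 0.523; without it the changes were 0.38 (adjusted p = 0.219) and 0.27 (adjusted p = 0.57). Neither was called without control 1-22, the lowest control of both, and Ech1 was not called without control 1-24. Calls over all genes went from 640 to 46 without 1-10 and to 136 without 1-22. Without treated mouse 1-8, 4 of the 31 genes and 1369 of all genes were called. Among genes not called, Hadh, the short-chain hydroxyacyl dehydrogenase, and Decr1, a reductase for unsaturated chains, had 3 treated mice above 3 controls, with changes of 0.35 and 0.30. Acadm and Hadhb were separate in the same way. How many of all genes tested were separate was not counted. The largest change not called was that of Fabp3, 0.57, with an interval from -0.33 to 1.47. Of 6 fat markers tested, 3 were above 0 and 3 below, with a median change of 0.05. The 1 called was Thrsp, which fell by 1.32. Of 52 other pathway genes, Acox2 rose by 1.39 (adjusted p = 7.12e-08).

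None of the 31 genes was called with the other 10 chemicals in the limma fit, and the background differed among them. Coumarin had 4.68% of all genes called, and 3 of the 31 with an unadjusted p under 0.05, against 2193 of all 12735 genes. Its largest change was that of Adipoq, 0.69, with an interval from -1.51 to 2.90. Malathion had 2.66% called, and 3 with an unadjusted p under 0.05, against 2424 of all genes. 1,5-naphthalenediamine had 1.20% called, and 1 with an unadjusted p under 0.05, against 1202 of all genes. Benzene had 0.0942% called, and 3 with an unadjusted p under 0.05, against 1168 of all genes. N-(1-naphthyl)ethylenediamine dihydrochloride and pentachloronitrobenzene had 0.00785% called each, and none with an unadjusted p under 0.05, against 989 and 306 of all genes. For 2-chloromethylpyridine hydrochloride, 2,2-bis(bromomethyl)-1,3-propanediol, 4-nitroanthranilic acid and diazinon the background was 0%, and 3, 1, 0 and 1 of the 31 genes had an unadjusted p under 0.05. Of all 12735 genes, 1641, 1485, 219 and 650 had one.

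With 6 of these 10 chemicals, coumarin among them, the largest change was in Adipoq, Fabp4 or Fabp3. It was Fabp4 with benzene (-0.74, interval -1.75 to 0.28) and with N-(1-naphthyl)ethylenediamine dihydrochloride (-0.53, interval -1.88 to 0.82). It was Fabp3 with 4-nitroanthranilic acid (-0.24) and diazinon (-0.46), and Adipoq with 2,2-bis(bromomethyl)-1,3-propanediol (0.65, interval -1.89 to 3.20). Heart muscle markers had a median change of -0.88 with 2-chloromethylpyridine hydrochloride, -0.78 with benzene and -0.68 with diazinon, with 11, 11 and 12 of 13 below 0. With coumarin all 6 fat markers were above 0, with a median of 0.52 and 1 called. Their part in the results was not tested.

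Acot1 was nearest to a call with malathion, an organophosphate insecticide. It stood at 9.11, 9.19, 9.29 and 9.37 in treated mice, all below the feed controls at 9.48, 9.82, 10.02 and 10.05. The change was -0.60 ± 0.19 (limma, adjusted p = 0.0633), and Acadm had a change of -0.38 (adjusted p = 0.0803), also with all treated mice below all controls. Club cell markers moved with this comparison: Scgb3a2 fell by 0.59, Cyp2f2 by 0.32 and Scgb1a1 by 0.19, and their part in it was not tested. Acot1 and Acadm were called when only the arrays of these 2 groups were fitted (adjusted p = 0.0383 and 0.0384).

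Acot1 was also the measured gene with the largest change with 1,5-naphthalenediamine (-0.43) and pentachloronitrobenzene (-0.40). In both, 3 treated mice lay below 3 feed controls at 8.80, 8.86 and 8.95. Neither passed, with adjusted p = 0.535 and 1, and these chemicals share their controls. With 2-chloromethylpyridine hydrochloride, which shares the water controls with N-methylolacrylamide, Cd36 had a change of 0.60 ± 0.25, Etfa of 0.34 and Angptl4 of -0.52, none of them called, beside the heart muscle marker median of -0.88.

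Outside the 31 genes, peroxisomal Acox2 rose with 4 chemicals, all labelled lung carcinogens. With benzene and 2,2-bis(bromomethyl)-1,3-propanediol, which carry the same label, none of the 52 other pathway genes was called. No test of class was made for Acox2. It rose by 2.06 with 1,5-naphthalenediamine, from 6.97 to 9.03 (adjusted p = 3.1e-14), and by 1.27 with coumarin (adjusted p = 3.4e-11), as it did with 2,3-benzofuran and 1,2-dibromoethane. Me1, malic enzyme, rose by 0.66 with 1,5-naphthalenediamine, and Phyh, phytanoyl-CoA hydroxylase, by 0.44 with coumarin. Of the 52 genes, 3.85% were called with 1,5-naphthalenediamine and 3.85% with coumarin, against 1.20% and 4.68% of all genes. With 1,2-dibromoethane and 2,3-benzofuran 3.85% and 1.92% were called, against 4.59% and 5.03%. With 8 of the 13 chemicals none of the 52 other pathway genes was called.

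Corn oil supplies fatty acids, and the controls given corn oil, water or feed were compared. In set 1, corn oil against feed called none of the 31 genes, and the background was 0%. None of the 31 had an unadjusted p under 0.05 in limma, against 207 of all 12735 genes. In set 2, corn oil against feed also called none, against 4.41% of all genes tested. An unadjusted p under 0.05 in limma was found for 9 of the 31 and for 2817 of all 12735 genes. Of the 31 changes 29 were below 0, with a median of -0.16 against -0.05 over all genes. A comparison with feed carries gavage as well as oil.

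Nearest to a call was Slc25a20, from 9.33 to 10.10 with a median of 9.57 in 8 corn oil controls and at 9.83, 10.01, 10.04 and 10.11 in 4 feed controls. The ranges overlapped, with only corn oil mice 2-59 and 2-132 inside the feed range, and the change was -0.37 ± 0.12 (limma, adjusted p = 0.0527). Plin2, a droplet coat protein, had a change of -0.28 (adjusted p = 0.0556); the highest corn oil mouse and the lowest feed mouse were both at 11.53. Acaa1b and Ehhadh, both peroxisomal, had changes of -0.67 and -0.50 and were not called. The 5 hepatocyte markers moved with this comparison, with a median change of -0.77, all below 0, down to -1.52, and 0 called; their part in it was not tested. The largest change was that of Adipoq, -0.69, with an interval from -2.89 to 1.51. Without corn oil control 2-132 3 of the 31 genes were called, without 2-59 2 were, and without 2-97 or 2-99 1 was. Over all genes these fits called 495, 653, 528 and 881, in place of 561.

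Among the 52 other pathway genes, corn oil against feed in set 2 had 3 called (5.77%, against 4.41% of all genes tested). Ppard rose by 0.79 (limma, adjusted p = 0.00138). Plin5, a droplet protein of oxidative tissue, and Pparg, the gene of PPAR gamma, fell by 0.88 and 0.40. All 8 corn oil mice lay on 1 side of all 4 feed mice for these 3 genes, which were picked because they were called. Whether the corn oil difference differs between sets was tested with an interaction term in limma. None of the 31 genes was called, and the background was 0%. An unadjusted p under 0.05 was found for 1 of the 31 and for 673 of all 12735 genes. Intervals were wide: for Adipoq the difference was -1.25, from -4.92 to 2.43.

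Corn oil against water called 7 genes (22.6% of the 31, against 26.0% of all genes tested). Cd36 rose from 10.99 to 11.72, by 0.73 ± 0.22, and Acadsb from 7.86 to 8.34, by 0.47 ± 0.11 (limma, adjusted p = 0.0118 and 0.00166). The peroxisomal thiolase Acaa1a fell from 8.07 to 7.79 and Acads from 7.81 to 7.55 (adjusted p = 0.0141 and 0.0436). Eci1 fell from 9.33 to 9.08, Acadvl, the very long-chain dehydrogenase, from 10.12 to 9.87, and Etfb, the beta flavoprotein subunit, from 10.74 to 10.52 (adjusted p = 0.0467, 0.0133 and 0.0269). The median change of the 31 genes was -0.16, with 25 below 0. In corn oil mice Cd36 lay between 10.59 and 12.34, with a median of 11.81, and in water mice at 10.39, 10.82, 10.98 and 11.78. Acadsb lay between 8.03 and 8.75 in corn oil mice, with a median of 8.34, and at 7.65, 7.71, 7.83 and 8.27 in water mice. Water mouse 2-129 was the highest of its group for both genes, and all 7 genes overlapped between groups. Acaa1a lay between 7.52 and 7.98 with a median of 7.85 in corn oil mice, and at 7.95, 8.09, 8.11 and 8.13 in water mice. Acads lay between 7.34 and 7.80 with a median of 7.55 in corn oil mice, and at 7.61, 7.77, 7.89 and 7.96 in water mice. The largest change not called was that of Adipoq, -1.54, with an interval from -3.74 to 0.67. A second probe set of Acaa1a went the other way, by 0.18, and with the mean of its probe sets Acaa1a had a change of -0.05 and was not called (adjusted p = 0.694).

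Fat markers had a median change of -0.56 in corn oil against water, with 6 of 6 below 0, and heart muscle markers of -0.48, with 12 of 13 below 0 and 0 called in either list. Their part in the results was not tested. With both marker means as covariates 7 of the 31 genes and 3614 of all genes were called. When only the arrays of these 2 groups were fitted, 0 of the 31 genes and 0 of all 12735 genes were called.

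Water against feed called 6 genes (19.4%, against 37.0% of all genes tested). Acads rose from 7.31 in feed to 7.81 in water controls, by 0.50 ± 0.11 (limma, adjusted p = 0.000639). Cd36 fell from 11.81 to 10.99, Acadsb from 8.47 to 7.86 and Etfa from 9.86 to 9.35. Etfdh fell from 8.57 to 8.10 and Acadm from 9.96 to 9.60. The adjusted p-values of these 5 lay between 0.000242 and 0.019. The median change of the 31 genes was -0.02. Acads stood at 7.61, 7.77, 7.89 and 7.96 in water mice and at 7.18, 7.21, 7.32 and 7.53 in feed mice. Acadsb stood at 7.65, 7.71, 7.83 and 8.27 in water mice and at 8.28, 8.49, 8.52 and 8.59 in feed mice (limma, adjusted p = 0.000242). In feed mice Etfa stood at 9.76, 9.82, 9.85 and 10.02 and Cd36 at 11.55, 11.58, 11.77 and 12.34, against the water values above. Of the 6 genes only Cd36 overlapped between groups, through water mouse 2-129. These genes were picked because they were called, and how many of all genes were separate was not counted. The largest change not called was that of Adipoq, 0.85, with an interval from -1.70 to 3.39.

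Etfdh, the dehydrogenase that receives electrons from electron-transferring flavoprotein, stood at 7.90, 7.96, 8.18 and 8.36 in water mice and at 8.52, 8.53, 8.61 and 8.61 in feed mice. A second, dim probe set of Etfdh went the other way, by 0.18, and with the mean of both Etfdh had a change of -0.14 and was not called (adjusted p = 0.158). Both of these comparisons share the water controls with N-methylolacrylamide, so none of the 3 is separate evidence. The 3′ minus 5′ value was 0.083 to 0.164 in water controls, 0.205 to 0.393 in feed controls and 0.159 to 0.339 in corn oil controls. Of 5 alveolar macrophage markers 2 (Mrc1 and Fabp1, which is also a pathway gene) were called lower in water than in feed controls. Mrc1 was 1.20 lower there and 0.94 higher in corn oil than in water controls, and of 5 endothelial markers 3 (Cdh5, Cldn5 and Pecam1) were called higher in water than in feed controls. In water against feed the 5 hepatocyte markers had a median change of -1.06, all below 0, down to -1.97, with 0 called. In limma 2 of them had an unadjusted p under 0.05, as did 5968 of all 12735 genes. The part of these markers in the results was not tested. With the 3′ minus 5′ value as a covariate 6 genes were called for water against feed and 6 for corn oil against water. Over all genes that fit called 4397 and 3144. Without water control 2-124, 2 genes were called for corn oil against water and 4 for water against feed, with 1110 and 3088 called over all genes in place of 3310 and 4715. For corn oil against water, 3 were called without control 2-127, 4 without 2-121 or 2-99, and 12 without 2-132. Over all genes these fits called 2275, 1997, 2049 and 4900.

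Of the 52 other pathway genes, 12 rose and 8 fell in water against feed (38.5%, against 37.0% of all genes tested). Among them were Acsl4 (-1.36), Crot (-1.17), Acsl3 (-1.11), Fabp1 (-0.89), Lpl (-0.85) and Acox3 (0.71). Ppard rose by 0.69, Pparg fell by 0.45 and Rxra, a PPAR partner, rose by 0.31; these receptors were named after their values were seen. In corn oil against water 5 rose and 9 fell (26.9%, against 26.0% of all genes tested). They were led by Acsl4 (1.11), Crot (0.92), Plin5 (-0.78), Lpl (0.77), Acsl3 (0.73) and Bdh1 (-0.61), a ketone body enzyme.

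Mice of 1 group differed most in genes known from fat cells and muscle. The within-group SD was 1.87 for Adipoq, the gene of adiponectin, 0.86 for Fabp4, 0.57 for Fabp3, 0.50 for Plin4 and 0.44 for Cidec, and 0.11 for Hadha and Hadhb. Adipoq ran from 3.10 to 9.00 in 8 corn oil controls of set 2 alone. At such spread, the intervals of change given above for Adipoq all hold 0.

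These 5 genes followed 2 sets of markers that hold none of them. With group means subtracted, Pearson's r with the mean of fat markers over 70 mice was 0.922 for Adipoq, 0.920 for Fabp4, 0.858 for Plin4, 0.635 for Fabp3 and 0.600 for Cidec (within-group permutation, adjusted p from 7.7e-05 to 0.00021 over 62 relations). Spearman's rho was 0.934, 0.926, 0.851, 0.634 and 0.534. Fabp3, the heart form of fatty acid-binding protein, followed the mean of heart muscle markers more closely, with an r of 0.901 and a rho of 0.894 (permutation, adjusted p = 7.7e-05). The r of Fabp3 with heart markers was 0.896 without mice 2-28 and 2-82, 0.915 in set 1 and 0.901 in set 2. Without mice 2-82 and 1-24, the r of Adipoq with fat markers was 0.923, and it was 0.944 in set 1 and 0.938 in set 2.

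With the heart markers Plin4 had an r of 0.804, Fabp4 of 0.764, Adipoq of 0.674 and Cidec of 0.427. The relations to fat and to heart markers were not separated by a test. For the other 26 genes r lay between -0.318 and 0.29, and none passed by r (smallest adjusted p = 0.099). By rho, Acadl with the heart markers passed (adjusted p = 0.037). Of the fat markers Car3 ranged from 4.13 to 12.47 over the arrays, while Lep and Ucp1 stayed low, with means of 3.49 and 3.96. Of the heart markers Myl7 ranged from 7.24 to 12.26 and Myh6 from 5.25 to 11.38. How much fat or heart muscle each lobe held was not measured.

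**Figure D4:**
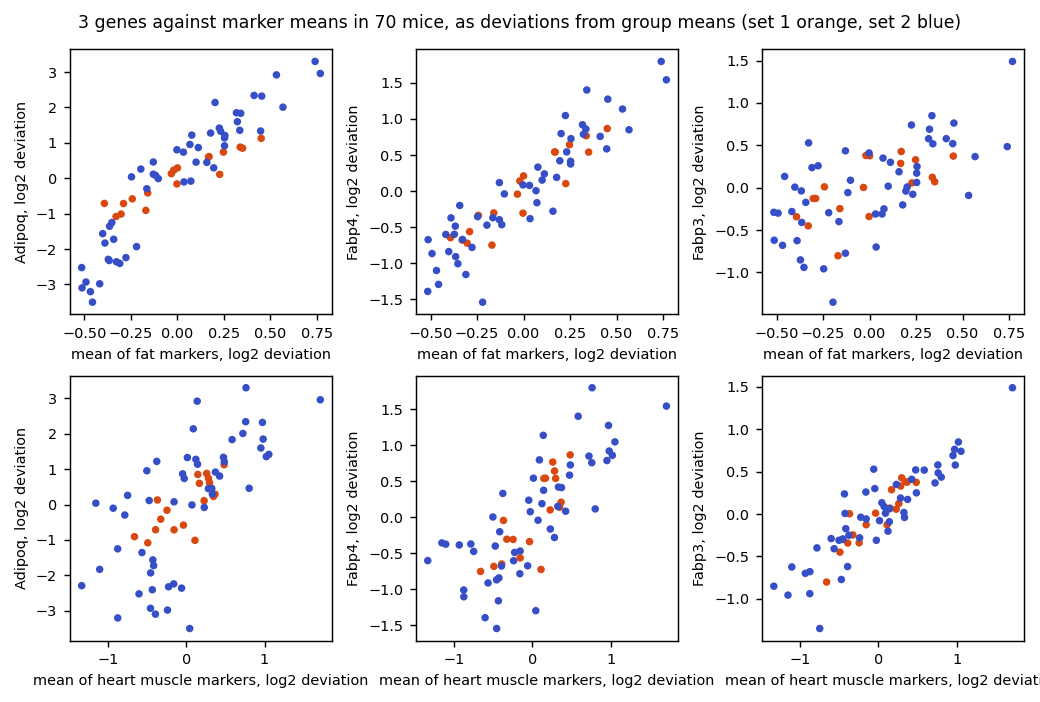
Adipoq, Fabp4 and Fabp3 in 70 mice against the mean of fat markers, upper row, and of heart muscle markers, lower row, all as log2 deviations from the group mean. Orange points are set 1 and blue points set 2; Pearson's r is 0.922 for Adipoq with fat and 0.901 for Fabp3 with heart muscle markers.

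The remaining genes did not vary as 1 block. Some pairs joined Cd36, Acadm, Etfa, Etfdh and Acadsb, which stand for uptake, medium- and branched-chain dehydrogenation and electron transfer. Pearson's r was 0.858 for Etfa with Etfdh, 0.809 for Acadm with Cd36 and 0.587 for Acadsb with Cd36. Other pairs joined thiolases, isomerases, thioesterases, a flavoprotein subunit, a shuttle enzyme and a peroxisomal enzyme: r was 0.805 for Acaa2 with Ech1, 0.795 for Etfb with Eci1, 0.744 for Acot1 with Acot2 and 0.733 for Cpt2 with Ehhadh. These pairs were picked after their values were seen, and Spearman's rho for them lay between 0.485 and 0.812, with adjusted p from 0.00011 to 0.0014 by r over 465 pairs (permutation).

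Some relations were inverse. Acadsb with Eci1 had an r of -0.616 and a rho of -0.558, and Cpt2 with Cd36 an r of -0.555 and a rho of -0.595 (permutation, adjusted p = 0.00031 and 0.00026, and 0.00011 and 0.00012). Both held within sets, at -0.75 and -0.589, and at -0.553 and -0.602.

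Several pairs had different values in the sets. Etfa with Etfdh had an r of 0.498 in set 1 and 0.892 in set 2, Acadm with Cd36 0.161 and 0.861, and Etfa with Cd36 -0.388 and 0.867. Benzene mouse 2-90 and corn oil control 2-132 were the lowest of their groups for Cd36, Acadm, Etfa and Etfdh. Without the 2 mice farthest from the median of the first gene, r was 0.794, 0.686 and 0.664. In sets 1 and 2, r was 0.866 and 0.791 for Acaa2 with Ech1, and 0.776 and 0.737 for Acot1 with Acot2. It was 0.877 and 0.759 for Etfb with Eci1, and 0.828 and 0.713 for Cpt2 with Ehhadh. Differences in r between the sets were not tested. Etfa and Etfb, the 2 subunits of 1 flavoprotein, had an r of 0.864 in set 1 and -0.346 in set 2. In all, 179 of 465 pairs had an adjusted p under 0.05 by r, 156 of them above 0 and 23 below 0.

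**Figure D5:**
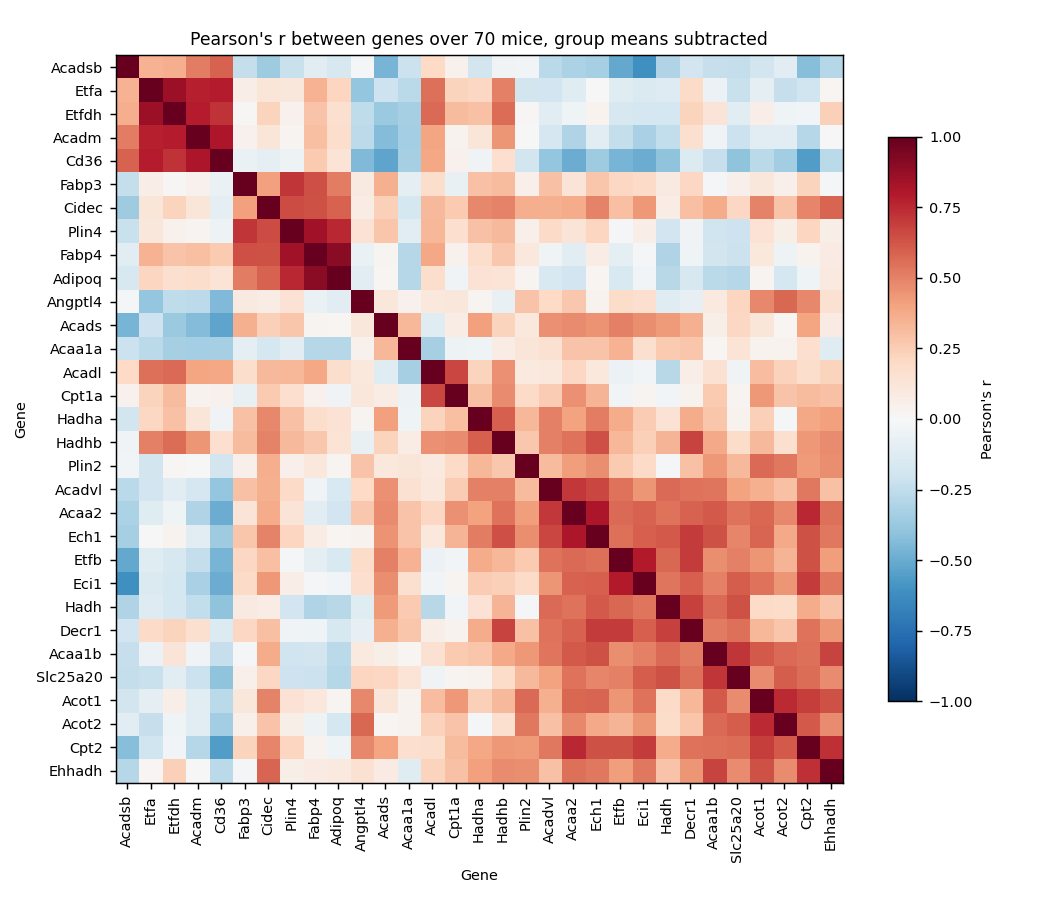
Pearson's r between each 2 of the 31 genes over 70 mice, with group means subtracted and genes ordered by similarity. Red blocks hold Etfa, Etfdh, Acadm and Cd36, the fat-marker genes Fabp4, Adipoq and Plin4, and the thiolase and thioesterase genes; blue cells such as Acadsb with Eci1 (-0.616) are inverse.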

How the data were processed

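The deposited values of 70 Affymetrix mouse arrays were read as log2 signals (range 2.47 to 14.5) from the values themselves; the authors' summarization and normalization are not given in the sources used here. RNA was prepared with Trizol, then Rneasy columns, per the labels. Of 45101 probe sets, 34945 carried a single gene symbol in the platform annotation; per gene the one with the highest mean over all arrays was kept. Genes above the 30th percentile of these means (4.98) gave 12735 genes. One mean per group (18 groups) was fitted over all arrays with limma 3.58.1 in R 4.3.3 (with the data.table package, version 1.17.8), which was tested on simulated data. Benjamini-Hochberg adjustment was made per comparison, with a threshold of 0.05. Correlations used 100000 permutations within groups, two-sided, and the smallest p they can give is 1e-05. Plots used Python 3.11.15 and matplotlib 3.10.9.

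The genes and lists were chosen with earlier results of these data known. All 31 genes are described; called genes are named, with values of every animal for up to 4 per comparison, and up to 6 called pathway genes per comparison. Where more of either are given, or genes near the threshold, they were chosen after their values were seen. Alternatives covered the filter, the probe sets, quantile normalization, the arrays fitted, a variance trend, covariates, the amount of RNA solution as a block and each animal left out. Overlap between groups is described for named genes only and was not counted over all genes. Group labels name separate animals. Each group's size limits the precision.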

Additional observations from a re-analysis of the deposited data

Results flagged for a closer look

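In groups of 4 to 8 mice, the highest or lowest mouse was checked for a gap to the others that is large against the group's range. Of 372 combinations of gene and group 29 (7.8%) passed, where chance gives about 1 in 20, and genes that vary together are not separate events.

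Mouse 2-119, given 2-chloromethylpyridine hydrochloride, stood apart for Acadsb (8.31, others 7.91 to 7.98), Hadha (9.69), Ehhadh (5.64, others 6.52 to 6.62) and Slc25a20 (9.21, others 9.89 to 9.92). Corn oil control 2-132 was lowest for Acadm (9.11), Etfa (8.87) and Etfdh (7.84). Benzene mouse 2-82 was lowest for Cpt1a (10.12), Cpt2 (8.82) and Acot1 (9.17), and benzene mouse 2-86 highest for Cidec (7.12). Feed control 2-43 was highest for Hadha (9.98), Decr1 (9.79) and Plin4 (7.80, others 5.71 to 6.00). Mouse 2-15, given 4-nitroanthranilic acid, stood apart for Acadvl (9.93), Hadh (11.65) and Cidec (6.94), and mouse 2-13 of that group for Etfdh (8.37). Water control 2-129 had Adipoq at 4.52, against 8.42 to 8.95 in the others, and corn oil control 2-99 had Fabp3 at 7.17.

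With 2,2-bis(bromomethyl)-1,3-propanediol, mouse 2-10 stood apart for Acadl (10.38) and Etfa (9.52), 2-2 for Hadh (11.94) and 2-6 for Fabp3 (8.91). With malathion, 2-36 stood apart for Hadhb (10.01) and 2-33 for Etfb (10.88). With N-methylolacrylamide, 2-109 stood apart for Acadvl (9.87) and 2-101 for Decr1 (9.76). Coumarin mouse 2-72 was lowest for Hadhb (9.89).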

How the results depend on the processing

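Of 484 alternative values for 26 called changes of single genes, 383 kept their call, 101 lost it and 0 reversed. When only the arrays of the groups compared were fitted, 0 of the 31 genes were called for 2,3-benzofuran, 1,2-dibromoethane and corn oil against water, 4 for N-methylolacrylamide and 2 for malathion. Over all genes those fits called 8, 12, 0, 1448 and 433, so for the first 3 the zeros go with few calls at all. With fat and heart muscle marker means as covariates, 0 were called for 1,2-dibromoethane and 2 for corn oil against feed in set 2. Over all genes that fit called 218 and 611. That corn oil comparison also had 2 called with a filter at the 50th percentile or a variance trend, and 1 after quantile normalization. These fits called 582, 599 and 634 of all genes tested. With the mean of all probe sets, 4 were called for 1,2-dibromoethane, with 535 over all genes. The labelled amount of RNA is a mass in set 1 and a volume in set 2, where it was the same in all gavage mice and differed among feed mice. With it as a block, 0 of the 31 genes were called for malathion and 0 for corn oil against feed in set 2. Calls over all genes were 189 and 166 there, in place of 339 and 561. Acadsb, Etfa and Acads kept their calls for water against feed in every alternative run.

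Leaving out each animal in turn gave 0 to 4 genes for 2,3-benzofuran, 0 to 3 for 1,2-dibromoethane, 1 to 12 for N-methylolacrylamide, 0 to 3 for corn oil against feed in set 2, 2 to 12 for corn oil against water and 4 to 7 for water against feed. It gave 0 throughout for the other 12 counts. Over all genes, leaving out animals gave 46 to 1369 calls for 2,3-benzofuran, 358 to 810 for 1,2-dibromoethane and 416 to 4203 for N-methylolacrylamide. Calls over all genes were 216 to 881 for corn oil against feed in set 2 and 1110 to 4900 for corn oil against water. They were 3070 to 5398 for water against feed. After the data were seen, 2 alternatives were added. A filter over all probe sets moved no count past 1.5 times. Without the mice whose 3′ minus 5′ value exceeded 0.5, 0 were called for 2,3-benzofuran and 3 for 1,2-dibromoethane. That fit also called 2 for corn oil against feed in set 2, 10 for N-methylolacrylamide and 1 for malathion. Over all genes it called 48, 670, 895, 3111 and 479 in these comparisons. The comparisons other than 2,3-benzofuran and 1,2-dibromoethane hold none of those mice but share the estimate of spread. No paired analysis was possible because the groups share no replicate numbers. Groups of 3 to 8 arrays limit what could be detected.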
